A study of Homo sapiens with 4 samples.

Results

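The regions described here are 2469 places on the genome at which wild-type (WT) p53 had a peak in a chromatin-immunoprecipitation sequencing (ChIP-seq) experiment and at which the K120R form of p53, in which arginine replaces Lys120, had none. They were chosen by those peak calls, out of 4326 WT peaks, as the peaks that overlapped no K120R peak by at least 1 bp and none of the 1356 response elements (REs) that the study lists by position in its source data. By the study's account, the list holds sites of an earlier published catalog whose WT peaks also passed a minimum read density, so a member can be a catalog site that was too weak to be listed. The cells were H1299, a human lung cancer line that lacks endogenous p53, and all of them carried the tetracycline (Tet) repressor. WT or K120R p53 was delivered as a lentiviral transgene and switched on by Tet for 24 h, so p53 was present at the level that the transgene gave. The dose of Tet was 1 µg/ml by the study's methods and 1 µg/µl by the sample labels. Each form was also measured without Tet, which gave 4 groups, each form of p53 with and without Tet, with 1 library each. All libraries were precipitated with an antibody against p53. As there was 1 library per group, no difference between groups carries a test, and the exact Clopper-Pearson 95% intervals below cover counting error only.

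p53 binds DNA as a tetramer. Its RE consists of a pair of decameric half-sites, each with a CWWG core (W stands for A or T) between purines on the 5′ side and pyrimidines on the 3′ side. Lys120 sits in the DNA-binding domain and contacts the major groove beside the core, and REs with the best known roles lie in or near genes for cell cycle arrest, apoptosis and DNA repair. Alu elements are short interspersed repeats that are present in very many copies in the human genome, and parts of their sequence resemble a p53 RE.

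Many members shared the same 20-bp sequence, so the most frequent ones are given first. In each member, the best match to the consensus RE within 75 bp of the peak summit was read from the reference (GRCh37). The sequences below run 5′ to 3′, and capitals mark the cores. The first 5 are the REs found in the most members, and the last 3 are the most frequent REs that were found on several chromosomes and never beside words of the Alu sequence.
RE in 58 members: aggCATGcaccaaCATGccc
RE in 52 members: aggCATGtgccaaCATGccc
RE in 46 members: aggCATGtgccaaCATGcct
RE in 39 members: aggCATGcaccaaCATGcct
RE in 30 members: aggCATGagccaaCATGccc
RE in 16 members: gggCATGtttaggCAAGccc
RE in 8 members: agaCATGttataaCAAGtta
RE in 7 members: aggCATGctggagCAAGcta

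The members had the lowest median height of the 4 classes of WT peaks, and part of the distance to the listed peaks is built into the list, which required a minimum read density. Their median WT fold enrichment, the ratio of the pileup at the summit to the local background estimated from the input, was 6.05, with quartiles of 4.85 and 8.28. The corresponding medians were 8.14 for the 527 WT peaks outside the list that had a K120R peak (termed "shared unlisted peaks"), 11.2 for the 765 listed peaks without a K120R peak and 20.1 for the 565 listed peaks with one. Fold enrichment reached 10 in 375 members (15.2%) and 20 in 29, and the highest value was 47.5. Member peaks were also short, with a median length of 259 bp compared with 324 bp for shared unlisted peaks and 496 bp for listed peaks with a K120R peak. Among members, 340 had a -log10 q-value below 5. The lack of a K120R peak fixed the membership and is no result: over all WT peaks, 74.8% overlapped no K120R peak.

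**Figure D1:**
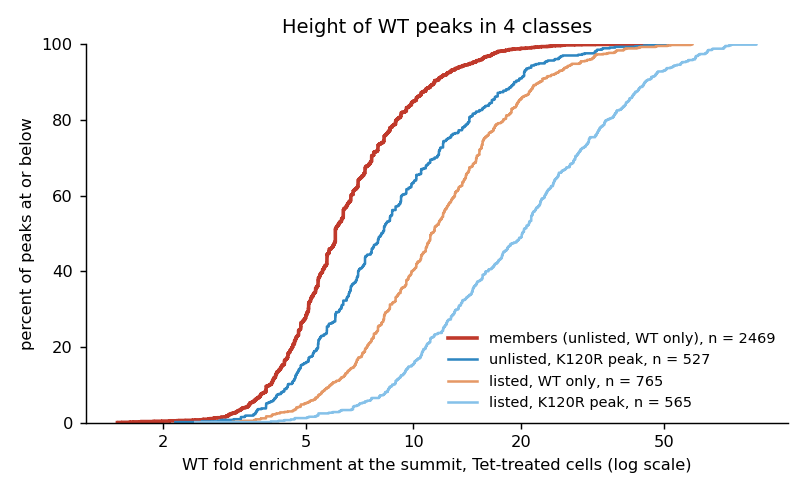
Cumulative percent of WT peaks of Tet-treated cells (y axis) by WT fold enrichment (x axis, log scale) for the members and the other 3 classes. The curve of the members lies to the left of the others, with medians of 6.05 for members and 8.14, 11.2 and 20.1 for shared unlisted peaks, listed peaks without and listed peaks with a K120R peak.

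Some members lay close to the edges of the rule. The member closest to a K120R peak, chr7:30067870-30068039 in an intron of PLEKHA8, had a fold enrichment of 3.33 and lay 1 bp from it. The next members by this measure lay 81 bp (chr20:29455516-29455711) and 110 bp (chr16:33083193-33083374) away, with fold enrichments of 5.43 and 5.14. In all, 15 members had a K120R peak within 500 bp, and the median distance was 405693 bp. Just outside the rule, a shared unlisted peak in an intron of DMTN overlapped its K120R peak by 9 bp, and those at chr7:1851752-1851946 and chr3:37011351-37011531 did so by 23 and 27 bp. The lowest -log10 q of a member was 1.45. No listed RE lay closer than 569 bp to a member, so widening the listed REs by 100 bp left the 2469 members as they were. The peak caller, MACS, extended tags to 170 bp in the library of WT with Tet and to 68 bp in that of K120R with Tet, and the part this had in the absence of a K120R peak was not tested.

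Few members had a peak without Tet. A WT peak of untreated cells overlapped 32 members (1.30%, 95% interval 0.888 to 1.82%), whereas over all WT peaks the share was 9.27%. The share was 4.93% (3.25 to 7.15%) in shared unlisted peaks, 15.2% in listed peaks without a K120R peak and 40.2% in those with one. Among members it rose with WT fold enrichment, from 1 of 683 members below 5 to 10 of 1411 between 5 and 10. Between fold enrichments of 10 and 20, 13 of 346 members had an untreated peak (3.76%, 2.02 to 6.34%), compared with 6 of 145 shared unlisted peaks (4.14%, 1.53 to 8.79%) and 48 of 346 listed peaks without a K120R peak (13.9%, 10.4 to 18%). In this bin the intervals of members and shared unlisted peaks overlapped, and that of the listed peaks lay above the one of members. At fold enrichments of 20 and above, 8 of 29 members had an untreated peak (27.6%, 12.7 to 47.2%) and 63 of 111 listed peaks without a K120R peak did (56.8%, 47.0 to 66.1%). No member overlapped a peak of untreated K120R cells (0 of 2469, which allows up to 0.149%), where 0.139% of all WT peaks did. In the 32 members with both peaks, the median fold enrichment was 5.60 without Tet and 11.9 with Tet, and in 3 of them the untreated value was the higher one. These values come from separate lists with different fragment lengths and are set side by side only.

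A sequence close to the consensus RE lay under most members. At most 3 of 20 bases differed from the consensus in 1793 members (72.6%, 70.8 to 74.4%), compared with 3.55% (3.05 to 4.11%) of windows of the same size 3000 bp to either side. The share was 73.2% (69.2 to 77.0%) in shared unlisted peaks and 89.2 and 90.3% in listed peaks without and with a K120R peak. Close matches were rarer in members than in listed peaks: 67 members (2.71%) had 0 mismatches and 177 (7.17%) had 1, whereas in listed peaks without a K120R peak these shares were 13.6 and 27.1%. In the flanks of members, 0 of 4927 windows had a match with 0 mismatches and 1 had a match with 1. Where a member had 1 best match, its middle lay at a median of 16.5 bp from the summit, and in 960 of 1685 members (57.0%) it lay within 20 bp. At least 1 of the mismatches lay in a core in 28.3% (26.3 to 30.5%) of the matches of members and in 18.9% (15.1 to 23.2%) of those of shared unlisted peaks. The median fold enrichment was 7.37 in members with 0 mismatches, 6.37 with 1, 6.98 with 2 and 6.01 with 3. Beyond the limit for a match it was 5.82 with 4 mismatches, 4.97 with 5 and 4.74 with 6.

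**Figure D2:**
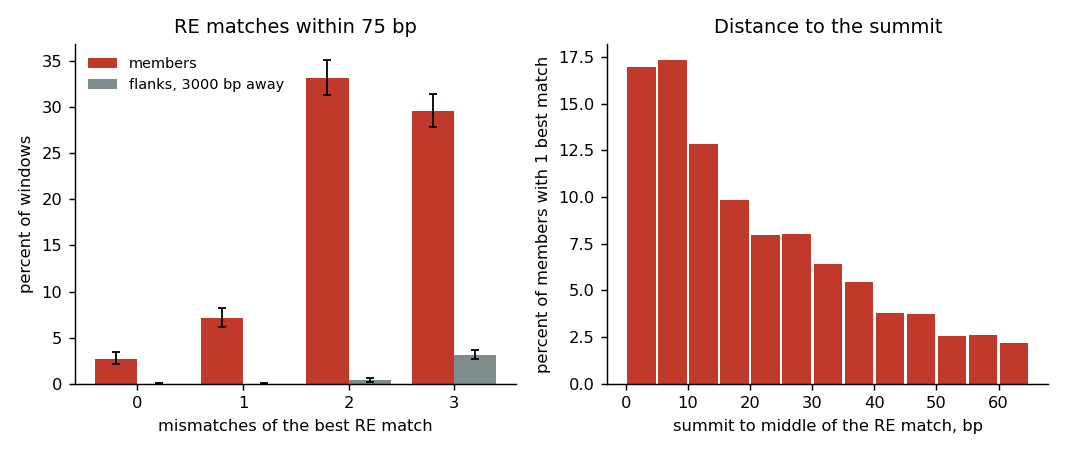
Left, percent of 151-bp windows (y axis) by the number of mismatches of the best RE match (x axis), for windows centered on member summits and windows 3000 bp away, with exact 95% intervals as error bars. Right, percent of members with 1 best match by the distance in bp from the summit to its middle. Matches of 2 and 3 mismatches were found in 33.2 and 29.6% of members, and the bars at the right fall with distance.

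The members without such a match were not all alike. Of these 676 members, 108 (16.0%, 13.3 to 19%) held a half-site with 0 mismatches, and 3.84% of all flank windows did. When half-sites were allowed to lie up to 13 bp apart, 119 of the 676 (17.6%) had a pair with at most 2 mismatches, compared with 3.35% of flank windows without a match. An insert of 1 bp was the most frequent, with 40 members (5.92%, 4.26 to 7.97%) and 0.337% of flank windows, and inserts of 11 and 10 bp came next with 13 and 12 members.

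The member without an RE match that had the largest fold enrichment, 35.2, lay at chr2:239361535-239362093, outside any gene and 2960 bp from the nearest transcript start of ASB1, a subunit of ubiquitin ligases. Its summit stood on a tandem repeat with a period of 29 bp, in which 4 units in a row carried the same half-site. The second, at chr16:661487-663403 in an intron of RAB40C, had a fold enrichment of 19.9 over 1917 bp and stood on a tandem repeat with a period of 34 bp that held no half-site of 0 mismatches in the window. The 151 bases around each summit are shown on the plus strand, with half-sites of 0 mismatches in capitals.
chr2:239361671-239361821: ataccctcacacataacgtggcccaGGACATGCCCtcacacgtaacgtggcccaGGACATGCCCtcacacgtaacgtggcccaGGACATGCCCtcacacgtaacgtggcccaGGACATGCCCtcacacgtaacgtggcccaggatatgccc
chr16:662177-662327: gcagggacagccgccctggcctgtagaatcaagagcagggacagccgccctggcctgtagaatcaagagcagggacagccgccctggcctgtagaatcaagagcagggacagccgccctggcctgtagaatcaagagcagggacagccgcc

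Tandem repeats of this kind, in which at least 80% of the bases within 150 bp of the summit equaled the base 1 period of 10 to 75 bp further on, were found at 7 members (0.284%, 0.114 to 0.583%) and in 0.101% of their flanks. They were more frequent at shared unlisted peaks, with 11 of 527 (2.09%, 1.05 to 3.7%). The other members without an RE match among the 5 with the largest fold enrichment were chr14:23022950-23023515 (18.8), chr11:61866717-61867063 (18.1, with 1 half-site of 0 mismatches) and chr6:58164583-58165049 (16.9). None of these lay in a gene. The half-site of 0 mismatches on chr11 lay 1 bp from another with 1 mismatch, so this pair has an insert of the most frequent length.

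Sequence separated the members from the shared unlisted peaks at the bases next to the cores. The bases of these matches took no part in the rule, and both classes lay outside the list. At positions 3, 8, 13 and 18 of the RE match, counted from 1 at its 5′ end, 50.1% of the bases were G/C bps in members (49.0 to 51.3%) and 20.7% in shared unlisted peaks (18.7 to 22.8%), a difference of 29.4 percentage points. The listed peaks without and with a K120R peak had 55.4 and 33.3%. As the search has no preferred strand, positions were also joined with their mirror positions. At positions 3 and 18, G/C bps made up 62.7% in members and 23.6% in shared unlisted peaks. At positions 8 and 13 the values were 37.5 and 17.9%. Within the cores, both classes had over 97% G/C at positions 4, 7, 14 and 17 and under 8% at positions 5, 6, 15 and 16. Outside these positions the classes differed as well, with 74.1 and 47.5% at positions 2 and 19 and 67.2 and 51.4% at positions 10 and 11. At positions 9 and 12 the values were 51.1 and 41.7%. The members without Alu words, defined below, had 45.9% at positions 3 and 18, 41.5% at 8 and 13, 60.1% at 2 and 19, 62.3% at 9 and 12 and 50.5% at 10 and 11, and the last of these was close to the shared unlisted peaks. Positions 1 and 20 went the other way, with 41.5% (39.8 to 43.1%) in members and 47.5% (44 to 51.1%) in shared unlisted peaks. Members without Alu words had 45.7% there (43.6 to 47.9%), an interval that overlapped the one of shared unlisted peaks. The whole window of 151 bp had a mean G/C content of 46.7% in members and 41.5% in shared unlisted peaks.

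**Figure D3:**
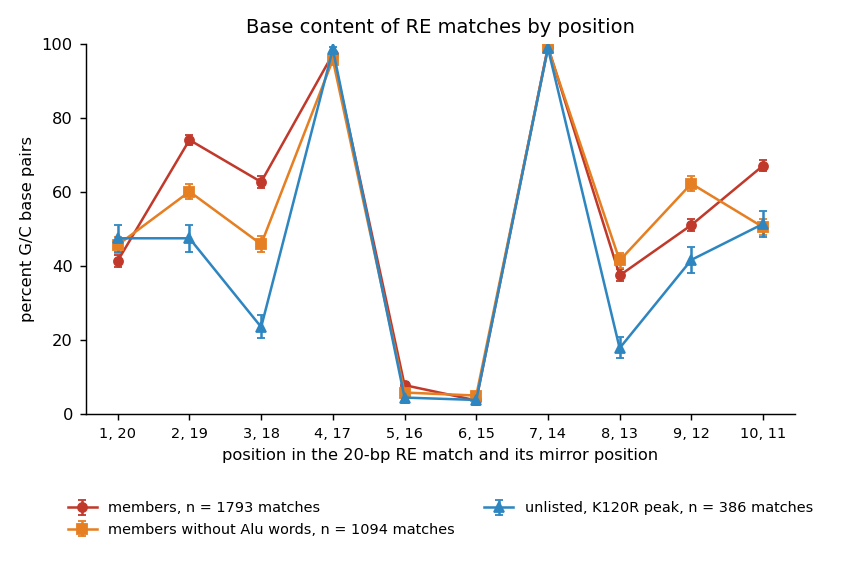
Percent G/C bps (y axis) at each position of the RE match joined with its mirror position (x axis), for members, for members without Alu words and for shared unlisted peaks, with exact 95% intervals. The members lie above the shared unlisted peaks at positions 3 and 18 (62.7 and 23.6%) and at positions 8 and 13 (37.5 and 17.9%).

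Seen from the other side, the G/C count at these 4 positions went with the share of unlisted WT peaks that had a K120R peak. With 0 G/C bps, 177 of 343 such peaks had a K120R peak (51.6%, 46.2 to 57.0%). The share was 25.4% (21.5 to 29.6%) with 1 G/C bp, 9.92% (7.90 to 12.3%) with 2, 3.04% (1.75 to 4.89%) with 3 and 1.15% (0.0291 to 6.24%) with 4. None of the first 4 intervals overlapped its neighbor. The fall was not limited to RE matches. In unlisted WT peaks without a match, where the same positions of the best 20 bases were read, a K120R peak was present at 95 of 374 peaks (25.4%, 21.1 to 30.1%) with 0 or 1 G/C bp and at 15 of 188 (7.98%, 4.53 to 12.8%) with 3 or 4. Among peaks with a match these shares were 36.6% (33.3 to 40.1%) and 2.77% (1.62 to 4.4%). Within bins of WT fold enrichment, which were added after the data were seen, the order held from 0 to 3 G/C bps. At fold enrichments of 10 and above, the shares for 0 to 3 G/C bps were 82.6, 50.7, 18.3 and 5.45%, and 1 of 14 peaks with 4 G/C bps had a K120R peak (7.14%, 0.181 to 33.9%). Between 5 and 10 they were 41.9, 22.6, 7.01 and 2.14%, and below 5 they were 31.7, 12.8, 7.09 and 2.96%. Members with 0 G/C bps were few, 166 of 1793 (9.26%), and 38.5% of the members with an RE match had 2.

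**Figure D4:**
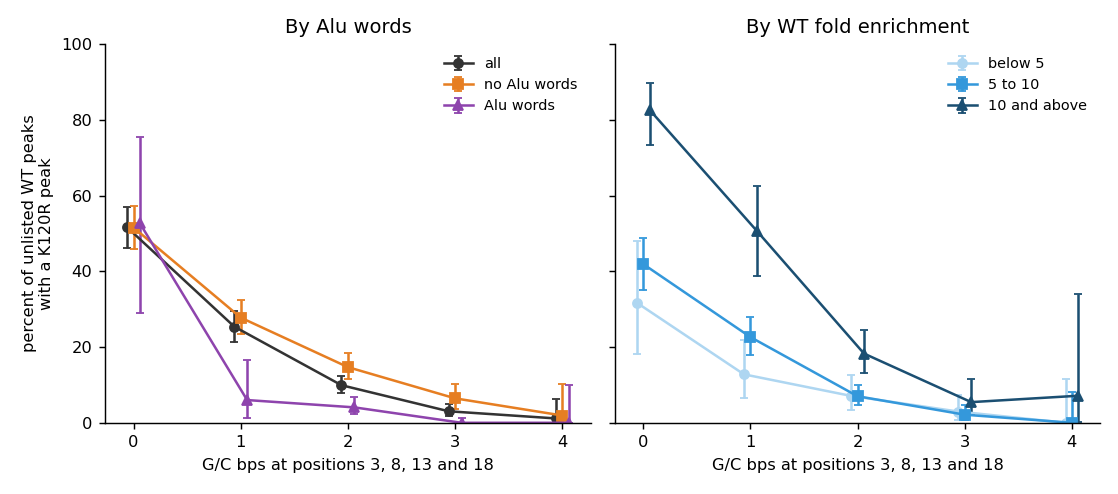
Percent of unlisted WT peaks with an RE match that had a K120R peak (y axis) by how many of positions 3, 8, 13 and 18 held a G/C bp (x axis), split by Alu words on the left and by WT fold enrichment on the right, with exact 95% intervals. Over all such peaks the share falls from 51.6% at 0 G/C bps to 1.15% at 4.

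Sequences typical of Alu elements surrounded many members. No repeat annotation was used here, so 6 words of 9 bases from the Alu consensus were searched on both strands within 150 bp of the summit, and at least 2 of them were required. These were CTGTAATCC, CTACTAAAA, GAGGCTGAG, AGACCAGCC, TGCACTCCA and TGCAGTGAG, chosen after the data had been seen. Such Alu words were found at 760 members (30.8%, 29.0 to 32.6%) and in 15.4% (14.4 to 16.5%) of their flanks. They were found at 27 shared unlisted peaks (5.12%, 3.40 to 7.37%), where the flanks had 10.6%, and at 8.10 and 6.90% of the listed peaks without and with a K120R peak. Among K120R peaks without a WT peak the share was 2.41%. Members with Alu words held an RE match more often (699 of 760, 92.0%) than members without (1094 of 1709, 64%), and their median fold enrichment was 6.79 compared with 5.89. At the 4 positions beside the cores they had 60.1% G/C, compared with 43.7% in members without Alu words. In unlisted peaks without Alu words the share with a K120R peak still fell with the number of G/C bps, from 51.5% at 0 to 27.8, 14.7, 6.45 and 1.92%. Among those with Alu words, 10 of 19 peaks had a K120R peak at 0 G/C bps, 14 of 344 at 2 and 0 of 313 at 3 or 4 (up to 1.17%).

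The RE found in the most members was then followed through the reference, to see which of its copies had a WT peak. This RE was picked because it was frequent under the members, so its own share is a description. It differs from the consensus at 1 position in each half-site. Copies on chromosomes 1 to 22 and X were allowed any base at positions 1, 8, 9 and 20, where the frequent REs differ among themselves, and at most 1 difference elsewhere. There were 53259 copies, of which 81.2% lay beside Alu words, and 816 had their middle in a WT peak. Of the members, 700 (28.4%, 26.6 to 30.2%) held a copy, and 2.85% (1.60 to 4.65%) of the shared unlisted peaks did. The copies differed widely by the base at position 13, next to the second core. The commonest base in the genome there was C, in 47565 copies, and 33 of these had a WT peak (0.0694%, 0.0478 to 0.0974%). With A in its place, 367 of 707 copies had one (51.9%, 48.2 to 55.6%). With G, 77 of 513 copies had a WT peak (15%, 12 to 18.4%), and with T, 46 of 2701 did (1.70%, 1.25 to 2.27%). Members made up 309, 28, 70 and 45 of these peaks with A, C, G and T. Leaving out chromosome 8, the median fold enrichment of the members that held such a copy was 7.93 with A (n = 291), 6.29 with G (n = 68), 6.00 with C (n = 28) and 5.70 with T (n = 42).

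The order of the bases was the same among copies whose 75 bases around the RE occur once in the reference, with 51.9% for A, 15.1% for G, 1.77% for T and 0.0747% for C. Restricting these further to copies beside Alu words gave 55.0, 16.1, 1.51 and 0.0588%.

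Within the 707 copies with A at position 13, the free positions also went with the share that had a WT peak. With T at position 8, 143 of 177 copies had one (80.8%, 74.2 to 86.3%), with C 168 of 254 (66.1%, 60.0 to 71.9%), with A 56 of 257 (21.8%, 16.9 to 27.3%) and with G 0 of 19 (up to 17.6%). With C at position 20 the share was 59.5% and with T 47.4%. At position 9 it was 64% (57.2 to 70.4%) with A and 45.2% (40.7 to 49.8%) with G, and 9 of 11 copies with C and 8 of 11 with T had a WT peak (81.8%, 48.2 to 97.7%, and 72.7%, 39.0 to 94.0%). Of the 4 combinations of T or C at position 8 with T or C at position 20, T at position 8 and C at position 20 had the highest share, with 83 of 91 copies (91.2%, 83.4 to 96.1%).

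Changes at single positions of the other bases had unequal shares. In 354 copies with a change at the C or G of either core (positions 4, 7, 14 and 17), 0 had a WT peak (up to 1.04%). After changes at the W positions, part of the copies had a peak. T16C, which turns the second core into CACG, left 88 of 339 copies with a WT peak (26.0%, 21.4 to 31.0%), A5G left 49 of 238 (20.6%, 15.6 to 26.3%), and A15G left 4 of 169 (2.37%, 0.649 to 5.95%). Changes to the other consensus base at these positions gave unequal shares too. They were 1 of 22 copies with A5T (4.55%), 9 of 18 with T6A (50%), 3 of 21 with A15T (14.3%) and 2 of 38 with T16A (5.26%). Of the copies with G3A and C18T, which put an A/T bp next to the outer side of a core, 24 of 43 (55.8%, 39.9 to 70.9%) and 30 of 60 (50%, 36.8 to 63.2%) had a WT peak. Both intervals hold the value of unchanged copies. Other exchanges of a G/C for an A/T bp within the consensus had lower shares. They were 6 of 48 with G2A (12.5%, 4.73 to 25.2%), 9 of 33 with C10T (27.3%, 13.3 to 45.5%) and 7 of 55 with C19T (12.7%, 5.27 to 24.5%). The share with a K120R peak was higher at copies with G3A and C18T than at unchanged copies. The unchanged RE was picked as the commonest under members, which by the rule lack a K120R peak. Its K120R share can therefore be low through that choice. Among copies with a WT peak, a K120R peak was present at 14 of 367 unchanged copies (3.81%, 2.1 to 6.32%), at 6 of 24 with G3A (25%, 9.77 to 46.7%) and at 9 of 30 with C18T (30.0%, 14.7 to 49.4%). The intervals of G3A and C18T did not overlap that of the unchanged copies, which is a description only, given how the unchanged RE was picked. Such differences were not limited to the bases next to the cores. At position 9 of the unchanged copies, a K120R peak was present at 10 of 137 copies with A (7.30%, 3.56 to 13%), at 1 of 213 with G (0.469%, 0.0119 to 2.59%) and at 3 of 9 with C (33.3%, 7.49 to 70.1%). With T in place of C at position 8, which also exchanges a G/C for an A/T bp, the shares were 7 of 143 (4.90%, 1.99 to 9.83%) and 6 of 168 (3.57%, 1.32 to 7.61%), and these intervals overlapped. At position 13, where G and C both replace an A/T bp, 0 of 77 copies with G (up to 4.68%) and 5 of 33 with C (15.2%, 5.11 to 31.9%) had a K120R peak. The intervals of both overlapped that of the unchanged copies. Only 0.0694% of the copies with C lay in a WT peak. How many would do so by position alone was not tested, so these 33 copies give no direction.

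**Figure D5:**
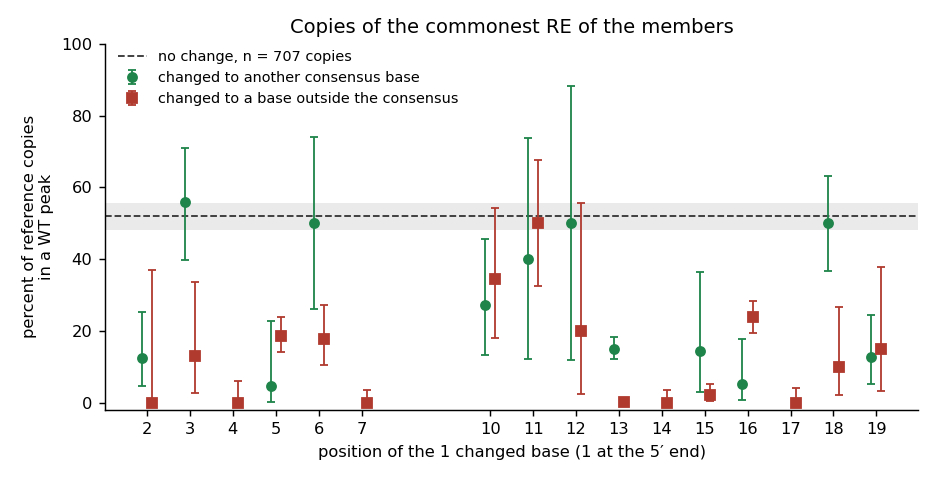
Percent of reference copies of the commonest RE of the members that lay in a WT peak (y axis) by the position of the 1 changed base (x axis), with exact 95% intervals. Circles are changes to another base of the consensus and squares changes to a base outside it, and the dashed line with its band is the share of the 707 unchanged copies, 51.9% (48.2 to 55.6%). Changes at positions 4, 7, 14 and 17 were at 0. Changes within the consensus were at 55.8 and 50% at positions 3 and 18 and at 12.5 and 12.7% at positions 2 and 19.

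Of the 6 members with the largest fold enrichment, 4 stood on duplicated sequence. An RE in an intron of NSF, which encodes an ATPase of vesicle fusion, had a fold enrichment of 47.5 (chr17:44702579-44703482), and the same RE in an intron of the pseudogene NSFP1 had 40.7 (chr17:44484867-44485890). Both had 1 mismatch and 3 G/C bps, and the 300 bases around them were 94.3% identical. Without Tet, the WT peaks there had fold enrichments of 9.67 and 12.6 in their own list. A further pair on chr9 (65836706-65837202 and 40207028-40207579), outside genes, had 29.4 and 28.1 with Tet and 12.8 and 11.6 without, and their 300 bases were identical. Reads of such copies cannot be told apart where the sequence is the same, and how the aligner placed them was not tested. The REs of both pairs are given as they stand in the reference, with the cores in capitals.
NSF and NSFP1: aggCATGttagggCATGcct
chr9 pair: ggaCATGcccaggCAAAgcc

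Repeats of this kind were limited in number. The 75 bases around the summit occurred more than once in chromosomes 1 to 22 and X in 159 of 2465 members (6.45%, 5.51 to 7.49%), in 49 of 523 shared unlisted peaks (9.37%) and in 3 of 765 listed peaks without a K120R peak. Leaving them out kept 2306 members, with a median fold enrichment of 6.05.

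Most of the other members among the 12 with the largest fold enrichment held REs close to the commonest one. These were chr5:123578044-123578595 (26.4, intron of LINC01170), chr11:103392236-103392882 (26.4, outside genes), chr9:33296366-33296785 (26.1, intron of NFX1), chr2:139195254-139195727 (25.8, intron of SPOPL-DT) and chr15:72740080-72740436 (24.8, intron of TMEM202-AS1). Their RE matches had 2 or 3 mismatches and 2 or 3 G/C bps, and all but the one at SPOPL-DT were beside at least 2 Alu words. The member at chr1:245305556-245305958 (25.7) had 3 mismatches, no Alu word and cores read CTAG in both half-sites. Of these 6, the one on chr11 had a WT peak in untreated cells, with a fold enrichment of 10.0. The member with the largest fold enrichment in untreated cells, 14.5, lay at chr19:40660855-40661644 and had 21.7 with Tet.

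The highest fold enrichment of a member with 0 mismatches was 15.7 (chr9:42081482-42081821), although the median of these members was the highest by number of mismatches. The next were chr2:53979599-53980004 in an intron of ASB3 (14.9), chr2:41949852-41950335 (14.2), chr1:82346211-82346630 in an intron of ADGRL2, an adhesion receptor (12.7), and chr5:123349702-123350005 outside genes (12.7). The member on chr9 and those in ASB3 and ADGRL2 held the RE that 16 members share, shown above, which has 3 G/C bps. Of the 25 WT peaks with this RE, 1 had a K120R peak, and the RE with 0 G/C bps that 8 members share was found under 11 WT peaks, of which 3 had one. The RE with 4 G/C bps that 7 members share was found under 12 WT peaks, of which 2 had one. With so few peaks, these REs show no order by G/C count.

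Members were spread over introns (59.8%, 57.9 to 61.8%), places outside genes (33.2%) and exons (6.97%), shares close to those of shared unlisted peaks (58.3, 34.7 and 7.02%). A transcript start lay within 1000 bp of 290 members (11.7%, 10.5 to 13.1%), compared with 10.8% (8.30 to 13.8%) of shared unlisted peaks and 19.6% (16.4 to 23.2%) of listed peaks with a K120R peak. Members near a transcript start had an RE match less often (61.0%, 55.2 to 66.7%) than the others (74.2%, 72.3 to 76%), and the 4 positions beside the cores held 55.1% G/C near a start and 49.6% elsewhere.

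Genes with known roles downstream of p53 were followed in lists ordered by role. A member lay in the gene or within 10000 bp of its start for 23 of 118 listed genes found (19.5%), where 7.64% of 20090 protein-coding genes had one, and genes were not matched for length. The listed genes had more WT peaks of any kind, at 60 of 118 genes (50.8%) compared with 12.3% of protein-coding genes. Among genes with a WT peak, those with a member were 23 of 60 in the lists and 1535 of 2477 in all, so the higher share above goes with WT peaks of any kind and is not particular to members. For 18 of the 23, every WT peak of the gene was a member. The counts were 6 of 29 genes for apoptosis, 5 of 18 for DNA repair, 8 of 28 for metabolism, redox and autophagy, 2 of 15 for feedback, 1 of 14 for cell cycle and 1 of 14 for secreted and matrix proteins. Of the 60 list genes with a WT peak, 30 had one that overlapped a K120R peak. These were 7 of 10 for cell cycle, 9 of 17 for apoptosis, 4 of 9 for DNA repair and 4 of 6 for feedback. For metabolism, redox and autophagy they were 4 of 13, and for secreted and matrix proteins 2 of 5. The share over all protein-coding genes was not computed. Because K120R peaks took part in the rule, counts by list are a description only.

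In the apoptosis list, APAF1, the scaffold of the apoptosome, had a member 677 bp before its start with a fold enrichment of 10.5 and 3 G/C bps in its RE match. TNFRSF10A and TNFRSF10D, receptors of the death ligand TRAIL, had members 453 and 371 bp after their starts (8.53 and 10.6). At TP53INP1, which promotes autophagy and cell death, a member 223 bp before the start had 11.8, and it also had a peak in untreated cells. PHLDA3, an inhibitor of AKT, had 4.69 at 99 bp after its start. STEAP3, a metalloreductase, had 2 WT peaks without a K120R peak, of which a member in an intron had 4.03. None of the WT peaks of these 6 genes overlapped a K120R peak. The cell cycle list had a member at PRDM1 (3.82), where 2 of 3 WT peaks had a K120R peak.

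For metabolism, members lay 75 bp after the start of FDXR, which carries electrons to mitochondrial cytochromes P450 (5.56), 97 bp before that of DRAM1, a lysosomal protein (5.72), and 175 bp after that of PRKAB1, a subunit of AMPK (8.40). Its paralog PRKAB2 had a member in an intron beside Alu words (12.4). Members in introns of ULK2, CPT1A and SESN1 had 6.36, 7.77 and 7.01, and SESN1 also had a shared peak of 16.6.

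In the DNA repair list, ATR, a kinase of the replication stress response, had a member in an intron (7.01) with 1 mismatch and 0 G/C bps. ATM, the kinase that responds to double-strand breaks, had a pair of members, at 7.64 and 6.79, and a shared WT peak of 17.4. FANCC had members at 12.7 and 4.69, DDB1 had one of 5.62, and RRM2B had a pair (6.30 and 4.17) beside a WT peak of 62.2. Among the feedback genes, TP63, which encodes a relative of p53, had 3 members between 4.78 and 5.74, and HIPK2 had one (4.04). EGFR, in the last list, had a member of 4.45 in an intron. Not every member at a list gene held an RE match, which allows at most 3 mismatches. The best site had 4 mismatches at TNFRSF10A, TP53INP1, PHLDA3, DDB1, PRKAB1 and SESN1. It also had 4 at the ATM member of 6.79 and the TP63 member of 4.78. At EGFR it had 5, and at STEAP3 and DRAM1 it had 6. The RE matches of 5 genes that held one are shown with their cores in capitals, because they include the RE types seen above.
ATR, chr3:142243324-142243343: aaaCAAGtcttaaCAAGttc
FDXR, chr17:72869121-72869140: gggCAAGcccgctCCTGccc
APAF1, chr12:99038330-99038349: cagCAGGctcaggCACGttc
PRKAB2, chr1:146642300-146642319: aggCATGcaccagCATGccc
ATM, chr11:108109155-108109174: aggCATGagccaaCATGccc

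Words of other factors were searched in the same windows, both strands, and most were found at shares whose intervals overlapped those of the flanks. The AP-1 word TGACTCA was found in 55 members (2.23%, 1.68 to 2.89%) and in 2.64% of flank windows, while listed peaks with a K120R peak had it in 7.61% (5.56 to 10.1%) and in 2.13% of flanks. Those for CREB (TGACGTCA), ETS (CCGGAAG), NF-Y (CCAATCA), SP/KLF (GGGCGGGG), TEAD (GGAATGT), FOX (TGTTTAC) and YY1 (AAGATGGC), the E-box CACGTG and the word AGATAAG of the GATA factors were found in 0 to 2.92% of members, with intervals that overlapped those of the flanks. The RUNX word TGTGGTT was rarer in members (1.74%, 1.26 to 2.34%) than in flanks (2.64%, 2.21 to 3.13%), with intervals that overlapped slightly. The NRF1 word GCGCATGC (3.00 and 0.345%) and the CTCF word GGNGGCAG (7.98 and 4.65%) were more frequent in members, with intervals that did not overlap. At shared unlisted peaks the CTCF word had 3.98% and their flanks 4.09%, and at listed peaks without a K120R peak 4.71 and 4.44%. Its share in members without Alu words was not computed, and whether it marks CTCF sites was not tested. The NRF1 word shares CATG with the frequent REs above, and a further RE of this kind in 18 members, with C at position 8 and G at position 9, holds it in full.

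The density of members ranged from 0.0674 per Mb on chromosome Y and 0.432 on X to 1.4 on chromosome 19. The remaining member among the 12 with the largest fold enrichment (32.1) lay at chr8:55111708-55112273, outside genes and beside Alu words. On the same chromosome, 13 members and 1 shared unlisted peak with the same RE lay within 272740 bp (86560357-86833096), with fold enrichments of 5.01 to 11.4 among members. Of the 13, 7 also had a WT peak in untreated cells, with values of 2.88 to 4.64, and these made up 7 of the 32 such members.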

How the data were processed

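p53 ChIP-seq libraries of H1299 cells were analysed, 1 per group. As stated by the study, 75-bp reads aligned uniquely to GRCh37 were used, and MACS called peaks. Its version, 2.1.1.20160309, is the one given with the deposited peaks. Peaks were called against input at a q-value cutoff of 0.05, with 1 tag kept per position (33059650 to 34857204 ChIP tags). The deposited pileup is a signal height at the summit, the fold enrichment, also deposited, is pileup as a ratio to the local background, and the authors gave p-values and q-values on the −log10 scale. No value was normalized again. MACS fragment lengths of 170 bp (WT, Tet-treated) and 64 to 68 bp (the others) put the lists on different scales.

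The members, lists and words were chosen with earlier results of these data known. Best RE matches were searched in 151-bp windows at summits, with at most 3 mismatches. Genes are from GENCODE 44 on GRCh37. At 2 members on chromosome Y the reference window held no bases, and they count as without a match. Named members were the 12 with the largest fold enrichment, the top 5 without a match, with 0 mismatches and in untreated cells, those at the edges of the rule and those at list genes. Analyses used Python 3.11.15, numpy 2.4.6, scipy 1.17.1 and pysam 0.24.0. No p-value was computed. The Alu words, tandem repeats, repeated 75-mers and the search for copies were added after the data were seen. The procedure was tested on planted REs. Alternatives are given at the end.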

Additional observations from a re-analysis of the deposited data

How the results depend on the processing

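Of 106 recomputed values, 79 stayed within the interval of the reported value (for counts within 1.5 times, for the median fold enrichment within the quartiles). These include the values for listed REs widened by 100 bp, which left every member in place. Only the difference in percent G/C could change sign, and it did so in 0 of 13 alternatives. No paired analysis was possible because each group has 1 library and no test was made. Leaving out peaks with Alu words and repeated 75-mers was added after the data were seen. A WT -log10 q of at least 10 left 1264 members, of which 2.45% had an untreated peak, 81.1% an RE match and 1.66% an AP-1 word, with 51.8% G/C at the 4 positions and a K120R peak at 49.0% of unlisted REs with 0 or 1 G/C bp. At a WT -log10 q of at least 5, the share with an RE match was 76%, and at a fold enrichment of at least 5 it was 78.3%, with 10.2% of members near a transcript start. Dropping K120R peaks with a -log10 q below 10 gave 46.2% G/C and a difference of 26.0 points. With at most 2 mismatches, RE matches were found in 43.1% of members, with 52.8% G/C, a difference of 32.9 points and K120R peaks at 41.0% of REs with 0 or 1 G/C bp. Matches were found in 85.9% with at most 4 mismatches, in 63.0% within 50 bp and in 84.6% with half-sites up to 13 bp apart. Within 500 bp of a transcript start lay 7.13% of members, an AP-1 word lay within 50 bp in 0.972%, and the median pileup, in place of fold enrichment, was 25.2 fragments. Without Alu words, an untreated peak was found at 0.878% of members, an RE match at 64% and a transcript start at 13.2%. G/C was then 43.7%, the difference 23.6 points, and REs with 3 or 4 G/C bps had a K120R peak in 5.67% of cases. The lists hold regions above a threshold, so the absence of a peak says only that MACS called none with these reads.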
